A study of Mus musculus with 9 samples.

Results

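Lysosomes digest the sugars, lipids and proteins that a cell takes up or recycles, and the 37 genes described here encode their enzymes, activator proteins and membrane proteins, progranulin (Grn) and the transcription factor Tfeb. They were chosen by symbol from a list, which matched 37 of the 56748 Ensembl genes in the count table. The material was whole-brain RNA of E14 mouse embryos, with 3 libraries for each of 3 groups: valproic acid (VPA), poly(I:C) and saline control. Valproic acid is an anticonvulsant that inhibits histone deacetylases, poly(I:C) is a synthetic double-stranded RNA that imitates a viral infection, and prenatal exposure to either is used in mice to model autism. The labels give no strain, dose, day or route of exposure, litter or sex, and do not say whether the embryos of a group had different mothers. P-values therefore measure the spread between these libraries, some of which may be technical.

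Most soluble lysosomal enzymes are made in the endoplasmic reticulum, tagged with mannose 6-phosphate in the Golgi and delivered to an acidic compartment that a proton pump maintains. Lysosomal diseases of the brain arise when such an enzyme is lost, because its substrate then builds up in neurons and glia. Tfeb, when it is free to enter the nucleus, binds a short palindrome called the CLEAR element in the promoters of many lysosomal genes and raises their transcription.

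Each library held 15399974 to 19883131 counts, and 17171 genes passed the filter on low counts, all 37 members among them. The smallest count of any member in any library was 33, and 33 members had at least 100 counts in every library; the others were Ctsk, Ctsh, Manba and Tfeb. Levels are in CPM, the count of a gene relative to the total of its library, after scaling by trimmed mean of M-values (TMM). A difference was called where edgeR's quasi-likelihood test gave a p under 0.05 after Benjamini-Hochberg adjustment across every tested gene. The 8 neuron markers summed to 6825 to 7760.4 CPM, which fits the labelled tissue, and no marker on any cell type list was at 0 in all libraries. In bulk RNA, fewer cells of a type cannot be told apart from less RNA per cell. Xist, the RNA of the inactive X chromosome, was at 979 to 1054 CPM in all 3 valproic acid libraries and at 1047 CPM in poly(I:C) replicate 3, but at no more than 0.236 CPM in the other poly(I:C) libraries and the controls. The summed level of Ddx3y, Eif2s3y, Kdm5d and Uty, all on the Y chromosome, was at 196 to 201 CPM in replicates 1 and 2 of the poly(I:C) and control groups and at 0 in every other library, so control replicate 3 showed neither signal. Sex-linked expression thus moves with the exposures, and for valproic acid against control the 2 cannot be told apart. Where Xist is added to the fit as a covariate, it nearly coincides with that comparison, and its slope rests mainly on poly(I:C) replicate 3. For valproic acid, the loss of a call in such a fit therefore decides nothing.

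Per kilobase of merged exons, the most abundant member was Psap, the precursor of the saposins that present sphingolipids to their hydrolases, at a mean of 212 CPM per kilobase over the 9 libraries. Lamp1, a heavily glycosylated protein of the lysosomal membrane, followed at 66.7 CPM per kilobase. The proteases Ctsd, Ctsz and Ctsb and the membrane protein Scarb2, a sorting receptor of the lysosome, stood at 33.4 to 34.3 CPM per kilobase, too close to be ordered. Tfeb was lowest at 0.531 CPM per kilobase, below beta-mannosidase (Manba) at 0.671 and cathepsin H (Ctsh) at 1.06 CPM per kilobase. The median member was at 6.44 CPM per kilobase. Lengths came from a GENCODE release older than the build the authors named, and a gene with many alternative exons is understated by this measure.

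**Figure D1:**
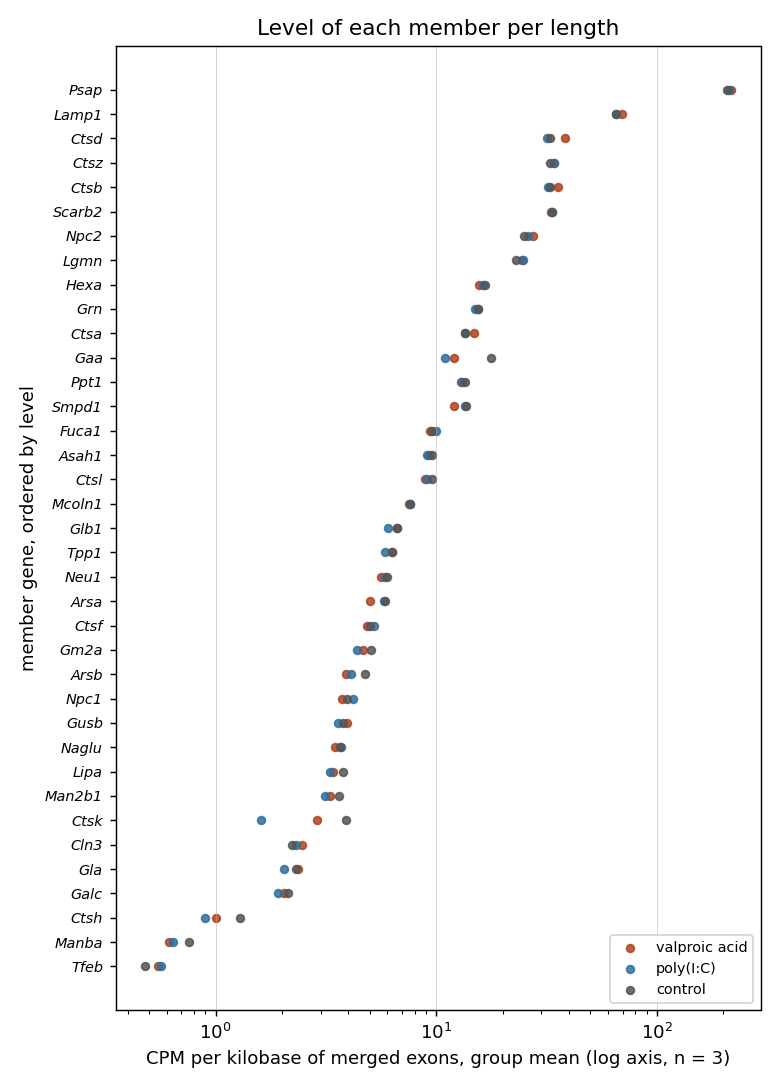
Level of each of the 37 members as CPM per kilobase of merged exons (log axis), ordered from Tfeb at the bottom to Psap at the top; points are group means of 3 libraries. The 3 groups nearly coincide for most members, and the visible gaps are Gaa, where control lies right of both exposures, and Ctsk, where poly(I:C) lies left.

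Summed over all 37 members, the level was 2354 to 2389 CPM in the valproic acid libraries, 2271 to 2344 CPM in the poly(I:C) libraries and 2298 to 2419 CPM in the controls, so the 3 groups overlapped and transcripts of the members took 0.227% to 0.242% of the scaled counts. The 11 glycosidases summed to 255 to 259.6 CPM under valproic acid and 241 to 260.2 CPM under poly(I:C), against 277 to 301 CPM in control. Much of this gap came from Gaa. The other 10 glycosidases summed to 195 to 204 CPM under valproic acid and 193 to 199.98 CPM under poly(I:C), against 199 to 212 CPM in control. Both exposures thus overlapped with control, poly(I:C) only through its replicate 1 and control replicate 3. The 2 sulfatases summed to 40.0 to 45.4 CPM under valproic acid and 44.8 to 46.8 CPM under poly(I:C), against 49.2 to 51.4 CPM in control, without overlap between either exposure and control. The 10 proteases summed to 589 to 616 CPM under valproic acid, 554 to 575 CPM under poly(I:C) and 559.6 to 589.6 CPM in control. The median coefficient of variation of a member over the 9 libraries was 6.68%, against 9.31% for all tested genes.

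Because Tfeb is a member and acts through CACGTG, the core of the CLEAR element, promoters of the members were searched for it. RefSeq's promoter table (GRCm38.p6; 250 bases before to 50 after each start) held 39 promoters for 33 of the 37 members. CACGTG, which reads the same on both strands, occurred in 13 of these 39 promoters (33.3%), against 2349 of all 32851 promoters in the table (7.15%). The longer TCACGTGA, which contains it, occurred in 5 of the 39 (12.8%) against 0.974% of all promoters, in Ctsd, Ctsa, Mcoln1, Cln3 and Gla. A match describes letters in this window and not a bound site. The 250 bases before the start are printed below for the 3 members called in any comparison, Gaa, Ctsd and Ctsk, and for 2 membrane proteins rich in the motif that were not called, Lamp1 and Mcoln1. They are written 5′ to 3′ in the direction of the gene with CACGTG in capitals. In RefSeq's GRCm38.p6 they lie at chr11:119267713-119267962, plus strand (Gaa), chr7:142387828-142388077, minus strand (Ctsd), chr3:95498960-95499209, plus strand (Ctsk), chr8:13158911-13159160, plus strand (Lamp1) and chr8:3500269-3500518, plus strand (Mcoln1), an older build than the one the authors named.
Gaa: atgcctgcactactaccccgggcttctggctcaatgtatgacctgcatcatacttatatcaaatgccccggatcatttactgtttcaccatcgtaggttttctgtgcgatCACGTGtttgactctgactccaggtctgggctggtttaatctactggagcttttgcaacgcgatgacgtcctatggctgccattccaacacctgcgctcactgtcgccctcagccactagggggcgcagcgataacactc
Ctsd: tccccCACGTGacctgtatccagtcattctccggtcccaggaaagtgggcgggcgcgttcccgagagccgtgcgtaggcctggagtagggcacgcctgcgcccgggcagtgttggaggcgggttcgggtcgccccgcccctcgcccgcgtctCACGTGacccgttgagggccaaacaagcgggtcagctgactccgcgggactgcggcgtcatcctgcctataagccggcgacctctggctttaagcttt
Ctsk: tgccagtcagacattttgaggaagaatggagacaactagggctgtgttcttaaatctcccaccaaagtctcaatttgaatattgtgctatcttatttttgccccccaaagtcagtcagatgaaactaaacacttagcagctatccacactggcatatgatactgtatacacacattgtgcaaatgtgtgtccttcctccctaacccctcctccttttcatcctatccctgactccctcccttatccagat
Lamp1: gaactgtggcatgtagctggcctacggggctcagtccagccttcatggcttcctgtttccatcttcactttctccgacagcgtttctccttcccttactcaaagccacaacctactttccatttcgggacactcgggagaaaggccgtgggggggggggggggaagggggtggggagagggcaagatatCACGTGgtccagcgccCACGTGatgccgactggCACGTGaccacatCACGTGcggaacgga
Mcoln1: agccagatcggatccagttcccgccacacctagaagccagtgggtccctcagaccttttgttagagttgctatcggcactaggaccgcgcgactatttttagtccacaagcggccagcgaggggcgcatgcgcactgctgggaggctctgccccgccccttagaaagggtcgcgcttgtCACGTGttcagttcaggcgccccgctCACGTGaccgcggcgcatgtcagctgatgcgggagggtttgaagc

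The Gaa promoter holds CACGTG once, beginning 140 bases before the start. That of Ctsd holds it at 245 and 98 bases before the start, and the copy at 98 is part of a TCACGTGA. Lamp1 has 4 copies within the last 61 bases and Mcoln1 has 2, at 71 and 45 bases, while Ctsk has none in this window. Differences between groups overlapped between members with the motif and members without it. For valproic acid over control the 13 members with CACGTG had a median log2 fold change of 0.00 (range -0.56 to 0.21), and the 20 matched members without it a median of -0.05 (range -0.44 to 0.19). The medians for poly(I:C) over control were -0.00 with the motif and -0.05 without it.

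Across the 3 comparisons, 3 of the 37 members were called: Gaa, Ctsd and Ctsk. For valproic acid against control, Ctsd rose and Gaa fell, so 2 of 37 members (5.41%) were called against 6.35% of all tested genes, a share close to the background, with 1 higher and 1 lower against 3.57% and 2.78% of all genes. Under poly(I:C), Gaa and Ctsk fell relative to control, which is 2 of 37 members (5.41%) against 0.536% of all tested genes, and 2 lower and 0 higher against 0.274% and 0.262%. Between the exposures, Ctsd rose under valproic acid relative to poly(I:C), which is 1 of 37 members (2.70%) against 2.59% of all tested genes, and 1 higher and 0 lower against 1.42% and 1.18%. Both comparisons with control share the same control libraries. The median log2 fold change of the members was -0.05 for valproic acid over control, -0.04 for poly(I:C) over control and 0.04 for valproic acid over poly(I:C), beside a median of -0.00 over all tested genes in each.

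Without adjustment, 9 members had a p under 0.05 for valproic acid against control (22.1% of all tested genes did), 5 of them higher (11.2% of genes) and 4 lower (10.9%). In poly(I:C) against control 7 members did (12% of genes), 0 higher (6.21%) and all 7 lower (5.82%): Gaa, Man2b1, Arsb, Gm2a, Ctsh, Ctsk and Lipa. Between valproic acid and poly(I:C) there were 8 such members (16.7% of genes), 5 higher (8.21%) and 3 lower (8.45%). Counted by libraries that do not overlap, 11 members separated valproic acid from control (25.6% of genes), 5 above (12.6%) and 6 below (13%). Poly(I:C) and control were separated by 7 members (18.4% of genes), 1 above (9.61%) and 6 below (8.83%), and valproic acid and poly(I:C) by 10 (21.9% of genes), 8 above (10.5%) and 2 below (11.4%).

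**Figure D2:**
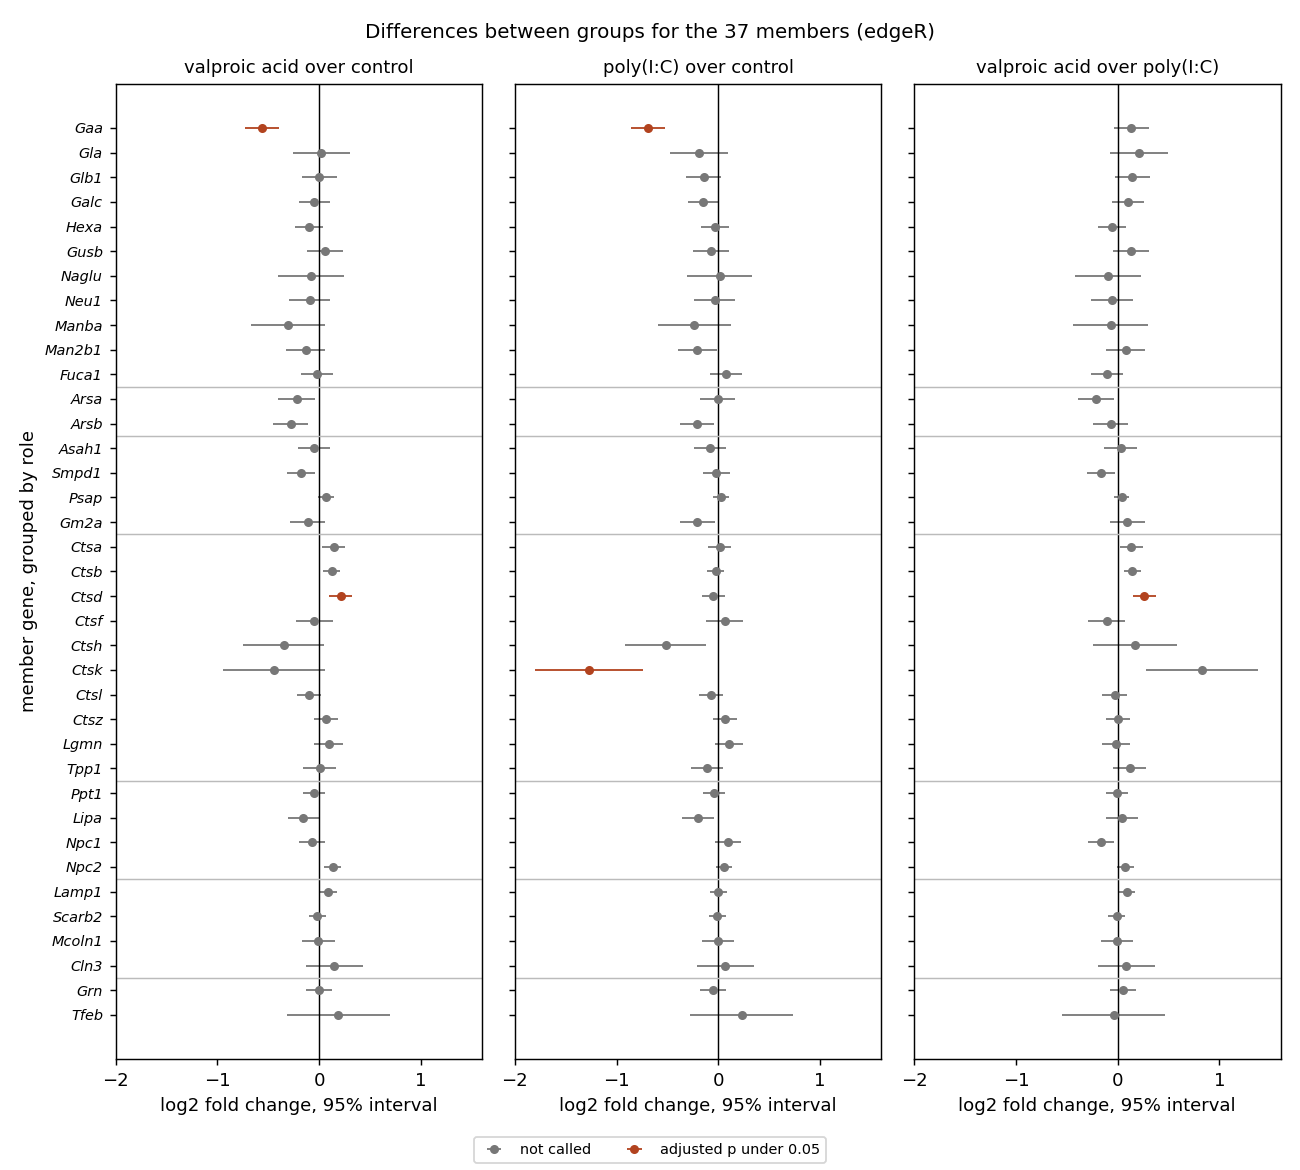
Log2 fold change of each member (edgeR; positive is higher in the group named on top) with its 95% interval in the 3 comparisons, grouped by role; orange marks an adjusted p under 0.05. Most intervals are short and reach 0; Gaa stands to the left in both comparisons with control, Ctsk furthest left under poly(I:C), and Ctsd to the right under valproic acid in both comparisons.

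The precision was enough to bound most members. For valproic acid over control, the 95% interval of 32 of 37 members lay within a 1.5-fold difference in either direction. The count was also 32 for poly(I:C) over control, and 36 for valproic acid over poly(I:C). Beyond the called genes, Manba and Ctsh had intervals that reached past 1.5-fold lower, and Tfeb past 1.5-fold higher, in both comparisons with control. For these low-level genes a difference of that size in that direction was not excluded.

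**Figure D3:**
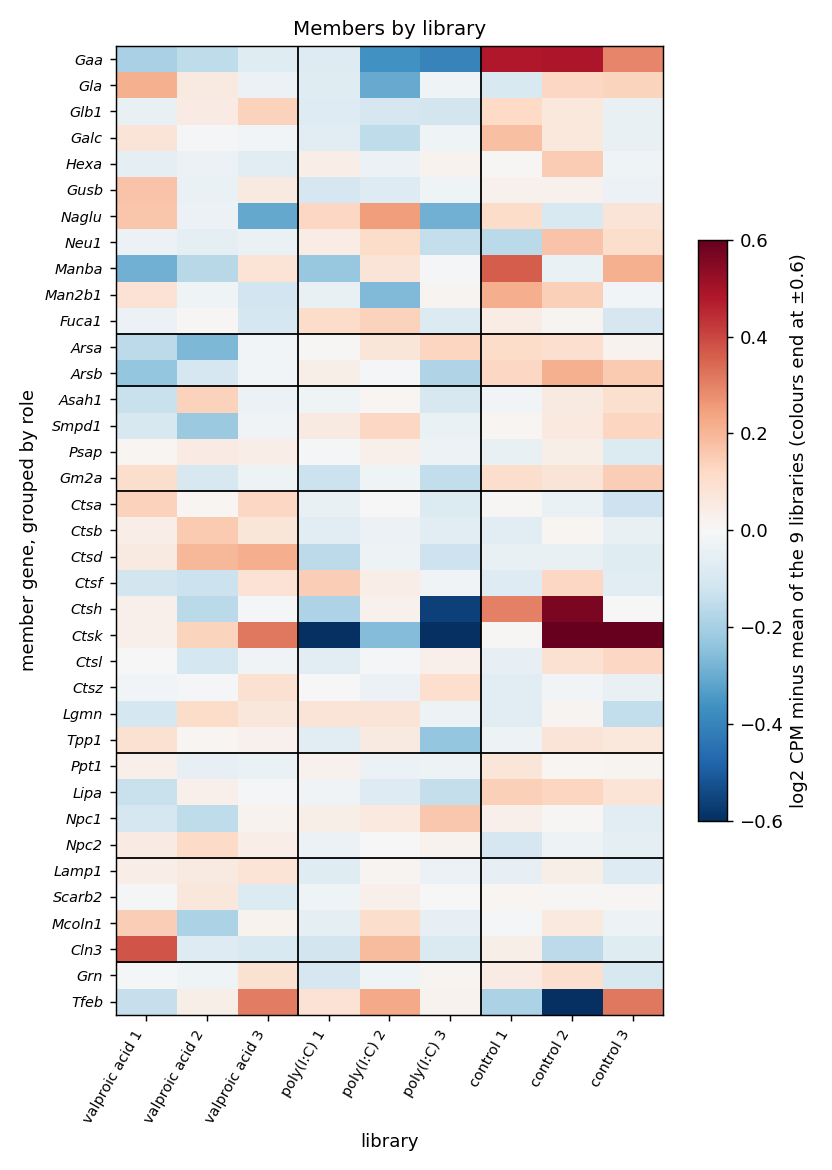
Log2 CPM of the 37 members (rows, grouped by role) in the 9 libraries (columns), relative to the mean of the 9; red is above and blue below that mean, with colours ending at ±0.6. The row of Gaa is red in all 3 controls and pale to dark blue in the exposed libraries, and low-level rows such as Ctsk, Ctsh, Manba and Tfeb vary most within groups.

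Among the glycosidases, Gaa was the gene that moved. It encodes acid alpha-glucosidase, which releases glucose from glycogen in the lysosome and whose loss causes Pompe disease in humans. Gaa was at 55.4, 57.2 and 60.4 CPM in the valproic acid libraries and 60.2, 49.3 and 48.1 CPM in the poly(I:C) libraries, against 88.4, 88.9 and 77.7 CPM in the controls. Every exposed library lay below every control, and the exposures overlapped each other. Means were 57.6 ± 2.52 CPM under valproic acid and 52.5 ± 6.68 CPM under poly(I:C), against 84.99 ± 6.33 CPM in control (SD, n = 3 each). Gaa was 1.47-fold lower under valproic acid (log2 fold change -0.56, SE 0.0786, edgeR adjusted p = 0.00118) and 1.62-fold lower under poly(I:C) (-0.69, SE 0.0787, edgeR adjusted p = 5.2e-04). Between valproic acid and poly(I:C) the log2 fold change was 0.13, with a 95% interval of -0.04 to 0.30 (edgeR adjusted p = 0.44). Leaving out any of the libraries compared kept both calls, in 6 fits each. With Y-linked expression as a covariate the difference for valproic acid was -0.43 (edgeR adjusted p = 0.0188) and with Xist as a covariate -0.38 (edgeR adjusted p = 0.40), which ended the call. Under poly(I:C) it was -0.69 among the 2 poly(I:C) and 2 control libraries that had Y-linked counts (edgeR adjusted p = 0.0047), as large as in all libraries.

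Gaa lies on chromosome 11, and no other protein-coding gene overlaps it in RefSeq's annotation. Its neighbours were looked up after its values were seen. Ccdc40, a coiled-coil gene of motile cilia that lies directly before Gaa, was at 16.6, 18.5 and 15.7 CPM under valproic acid and 19.0, 13.7 and 13.4 CPM under poly(I:C), against 22.3, 22.5 and 21.6 CPM in control. All exposed libraries were again below all controls, and poly(I:C) replicate 1 was the highest of its group for both genes. Its log2 fold changes were -0.39 for valproic acid and -0.53 for poly(I:C), with edgeR adjusted p = 0.064 and 0.066, so neither passed. Eif4a3, the RNA helicase of the exon junction complex that follows Gaa, rose by a log2 fold change of 0.15 under valproic acid (edgeR adjusted p = 0.0474). Tbc1d16, on the far side of Ccdc40, had log2 fold changes of 0.01 and 0.03. Sgsh, the lysosomal sulfamidase a few genes after Gaa, was at 5.29 CPM under valproic acid and 5.44 CPM under poly(I:C), against 5.10 CPM in control.

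**Figure D4:**
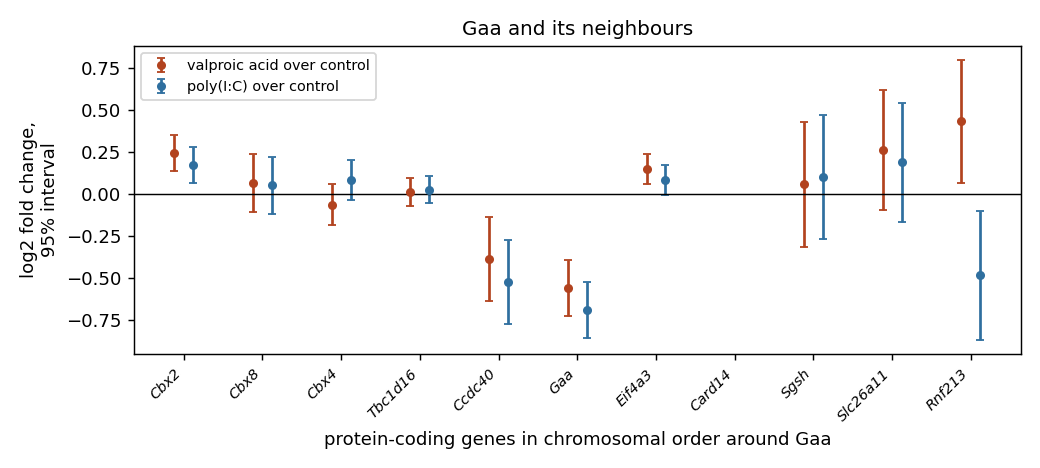
Log2 fold change over control, with 95% intervals, of Gaa and the 5 protein-coding genes on each side in RefSeq's order on chromosome 11, for valproic acid (orange) and poly(I:C) (blue). Gaa and Ccdc40 lie below 0 under both exposures while the adjacent Tbc1d16 and Eif4a3 do not; Card14 was too low to be tested.

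The other 10 glycosidases gave no call. Gla, alpha-galactosidase A, is the X-linked member and was at 8.46, 7.57 and 7.12 CPM under valproic acid, 6.93, 5.92 and 7.18 CPM under poly(I:C), and 6.84, 7.94 and 8.002 CPM in control. The 3 groups overlapped, in libraries with Xist and without it (log2 fold change 0.02 for valproic acid over control, 95% interval -0.26 to 0.30). Man2b1, lysosomal alpha-mannosidase, averaged 25.1 ± 2.54 CPM under poly(I:C) and 29.1 ± 2.39 CPM in control (SD, n = 3 each), with overlapping libraries and a log2 fold change of -0.21 (edgeR adjusted p = 0.37). Glb1, beta-galactosidase, was at 17.9 to 18.3 CPM under poly(I:C) and 18.8 to 21.0 CPM in control, without overlap, at -0.14 (edgeR adjusted p = 0.52). Galc, which degrades the myelin lipid galactosylceramide, Hexa, the alpha subunit of beta-hexosaminidase, Gusb (beta-glucuronidase), Naglu, which acts on heparan sulfate, Neu1 (sialidase), Manba and Fuca1 (alpha-fucosidase) had log2 fold changes of -0.31 to 0.07 in the comparisons with control.

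The sulfatases lay lowest under valproic acid, but neither difference passed the test. Arsb, which removes sulfate from dermatan and chondroitin sulfate, was at 21.8, 23.9 and 25.3 CPM under valproic acid and 26.2, 25.4 and 22.6 CPM under poly(I:C), against 27.9, 29.6 and 28.5 CPM in control. All exposed libraries lay below all controls. The log2 fold change was -0.28 for valproic acid (SE 0.0796, edgeR adjusted p = 0.0503) and -0.21 for poly(I:C) (SE 0.0789, edgeR adjusted p = 0.28). The value for valproic acid passed when only the 6 libraries compared were fitted (edgeR adjusted p = 0.0499), when genes were kept at 1 CPM in 3 libraries (edgeR adjusted p = 0.0473) or without a filter (edgeR adjusted p = 0.0249). It did not pass by DESeq2, nor in any of the 6 fits with a library left out (edgeR adjusted p = 0.053 to 0.16). With Y-linked expression as a covariate it was -0.22 (edgeR adjusted p = 0.26), and with Xist as a covariate -0.0852 (edgeR adjusted p = 0.90). Arsa, which removes sulfate from the myelin lipid sulfatide, was at 16.9 to 20.1 CPM under valproic acid, 20.5 to 22.2 CPM under poly(I:C) and 20.6 to 22.0 CPM in control. Its valproic acid libraries were below all others, at log2 fold changes of -0.22 over control (edgeR adjusted p = 0.13) and -0.22 over poly(I:C) (edgeR adjusted p = 0.20).

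Of the sphingolipid genes, none was called. Smpd1, acid sphingomyelinase, was at 40.8, 37.3 and 43.0 CPM under valproic acid and 45.3, 47.5 and 42.5 CPM under poly(I:C), against 43.9, 45.4 and 47.7 CPM in control. The valproic acid libraries lay below the controls (log2 fold change -0.18, SE 0.0649, edgeR adjusted p = 0.12) and overlapped with poly(I:C). With Xist as a covariate this difference was -0.0476 (edgeR adjusted p = 0.94). Psap, the most abundant member, was at 587, 603 and 599 CPM under valproic acid, 579, 594 and 569.8 CPM under poly(I:C) and 564, 596 and 549.7 CPM in control. Its groups overlapped, and the 95% interval for valproic acid over control was -0.01 to 0.14 on the log2 scale. Gm2a, the activator protein for ganglioside breakdown, was at 17.5 to 19.0 CPM under poly(I:C) and 20.4 to 21.4 CPM in control (log2 fold change -0.21, edgeR adjusted p = 0.30). Asah1, acid ceramidase, had log2 fold changes of -0.05 and -0.08 over control.

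Ctsd was the protease that rose under valproic acid. It encodes cathepsin D, the aspartic protease that cleaves many lysosomal proteins and whose loss in mice and humans causes a severe neuronal storage disease. Ctsd was at 83.5, 92.4 and 93.5 CPM in the valproic acid libraries and 72.0, 78.7 and 73.8 CPM in the poly(I:C) libraries, against 78.0, 78.0 and 76.5 CPM in the controls. Every valproic acid library lay above every other library, while poly(I:C) and control overlapped. Means were 89.8 ± 5.48 CPM under valproic acid and 74.9 ± 3.45 CPM under poly(I:C), against 77.5 ± 0.883 CPM in control (SD, n = 3 each). Ctsd was 1.16-fold higher than in control (log2 fold change 0.21, SE 0.0529, edgeR adjusted p = 0.0292) and 1.20-fold higher than under poly(I:C) (0.26, SE 0.0530, edgeR adjusted p = 0.0208). The log2 fold change of poly(I:C) over control was -0.05, with a 95% interval of -0.16 to 0.06. Removing control replicate 1, 2 or 3 raised the edgeR adjusted p against control to 0.081, 0.061 and 0.085, and removing valproic acid replicate 2 or 3 raised it to 0.085 and 0.099, which ended the call each time, with log2 fold changes of 0.18 to 0.26 over the 6 fits. The call against poly(I:C) ended when valproic acid replicate 2 or 3 was removed (edgeR adjusted p = 0.054 and 0.067), or poly(I:C) replicate 1 or 3 (edgeR adjusted p = 0.070 and 0.073). With Y-linked expression or Xist as a covariate the log2 fold change over control was 0.23 and 0.24, not called (edgeR adjusted p = 0.11 and 0.48), and over poly(I:C) it was 0.28 in both fits, not called (edgeR adjusted p = 0.093 and 0.24).

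Ctsb and Ctsa lay beside Ctsd without passing in edgeR. Ctsb, a cysteine cathepsin, was at 208, 226 and 213 CPM under valproic acid and 193, 198 and 194 CPM under poly(I:C), against 194, 204 and 196 CPM in control, so the valproic acid libraries were again above all others. Its log2 fold changes were 0.12 over control (edgeR adjusted p = 0.080) and 0.15 over poly(I:C) (edgeR adjusted p = 0.067). DESeq2's Wald test called the difference from poly(I:C) (DESeq2 adjusted p = 0.0259) but not that from control. Ctsa, the carboxypeptidase that shields beta-galactosidase and sialidase from degradation, was at 66.3 to 72.3 CPM under valproic acid, 62.1 to 65.9 CPM under poly(I:C) and 60.3 to 65.9 CPM in control (log2 fold change 0.14 over control, edgeR adjusted p = 0.12). Beside these values, the 14 microglia markers summed to 199.8 to 221 CPM under valproic acid, 197 to 199.8 CPM under poly(I:C) and 200.5 to 209 CPM in control, but Sall1, which neural progenitors also express, made up much of each sum. Sall1 rose under valproic acid relative to control (log2 fold change 0.35, edgeR adjusted p = 0.00126), while P2ry12 (-0.98, edgeR adjusted p = 0.0094) and Csf1r (-0.39, edgeR adjusted p = 0.0205) fell. EdgeR called 3.57% of all tested genes higher and 2.78% lower in this comparison. Of the 14 markers, 10 had a negative and 4 a positive log2 fold change, and Cx3cr1, Fcrls, C1qb and C1qc lay at -0.02 to 0.05. The 13 microglia markers other than Sall1 summed to 106 to 123 CPM under valproic acid and 112 to 117 CPM under poly(I:C), against 126 to 132 CPM in control. Both exposures thus lay below control in this sum and overlapped each other. The 7 border macrophage markers summed to 79.3 to 93.8 CPM under valproic acid, 59.5 to 72.4 CPM under poly(I:C) and 76.3 to 81.1 CPM in control. Valproic acid thus lay above poly(I:C) and overlapped with control. Among the 6 tested, Lyve1 was higher than under poly(I:C) (log2 fold change 0.69, edgeR adjusted p = 0.0220), where edgeR called 1.42% of all tested genes higher. Cd163 was lower than in control (-1.09, edgeR adjusted p = 0.0375), where edgeR called 2.78% of all tested genes lower. Over control, 4 of the 6 had a positive log2 fold change, Lyve1 (0.43) among them, and 2 a negative one. Of this list DESeq2 called only Lyve1 against control, higher. The 7 erythroid markers summed to 162 to 268 CPM under valproic acid and 90.2 to 134 CPM under poly(I:C), against 93.8 to 118 CPM in control. Of the 7, 5 rose under valproic acid relative to control, where edgeR called 3.57% of all tested genes higher. The 8 radial glia markers summed to 2027 to 2109.6 CPM under valproic acid, 1918 to 1986 CPM under poly(I:C) and 1872 to 1913 CPM in control, and the 8 neuron markers to 6825 to 7228 CPM under valproic acid, 7361 to 7760.4 CPM under poly(I:C) and 7400.3 to 7604 CPM in control. The part of these cells in the difference of Ctsd was not tested.

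Ctsk fell under poly(I:C). It encodes cathepsin K, a collagen-degrading cysteine protease best known from osteoclasts. Ctsk was at 1.90, 3.24 and 2.18 CPM in the poly(I:C) libraries, against 3.89, 7.55 and 6.21 CPM in the controls, and the groups did not overlap. Means were 2.44 ± 0.707 CPM under poly(I:C) and 5.88 ± 1.85 CPM in control (SD, n = 3 each), a 2.42-fold lower level (log2 fold change -1.27, SE 0.248, edgeR adjusted p = 0.0404). In the valproic acid libraries it was at 3.97, 4.25 and 4.84 CPM, above all poly(I:C) libraries and overlapping with control (log2 fold change -0.44 over control, edgeR adjusted p = 0.29; 0.83 over poly(I:C), edgeR adjusted p = 0.10). Without poly(I:C) replicate 1 or 3 the edgeR adjusted p was 0.17 and 0.15, and without control replicate 2 or 3 it was 0.11 in both fits, so the call ended, with log2 fold changes of -1.53 to -1.06 over the 6 fits. It also ended with Xist as a covariate (log2 fold change -1.19, edgeR adjusted p = 0.17) and among the libraries with Y-linked counts (-1.16, edgeR adjusted p = 0.34).

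Summed markers of some cells outside the neural lineage were at lower levels in the same libraries as Ctsk. The 9 mural and meningeal fibroblast markers summed to 704 to 738 CPM under poly(I:C) and 795 to 843 CPM in control, mostly from the collagens Col1a1, Col1a2 and Col3a1. The 7 border macrophage markers summed to 59.5 to 72.4 CPM under poly(I:C) and 76.3 to 81.1 CPM in control. EdgeR and DESeq2 called 0 of the 9 mural and fibroblast markers for poly(I:C) against control. Both also called 0 macrophage markers, of which edgeR tested 6 and DESeq2 gave an adjusted p to 5. EdgeR called 0.536% of all tested genes there. At an unadjusted p under 0.05 in edgeR, 4 mural and fibroblast markers were lower (Rgs5, a mural marker, Col1a1, Dcn and Col3a1). So were 2 macrophage markers, against 5.82% of all tested genes, and 0 on either list were higher (6.21% of genes). The mural markers Pdgfrb and Kcnj8 overlapped with control. Cspg4, also a mural marker, was the 1 of the 9 with a positive log2 fold change (0.23, edgeR adjusted p = 0.47). Under valproic acid the mural and fibroblast markers summed to 776 to 969 CPM, while Rgs5 was lower than in control (log2 fold change -0.26, edgeR adjusted p = 0.0135). The 6 osteoclast and cartilage markers summed to 174 to 180.4 CPM under poly(I:C) and 165 to 190.2 CPM in control, mostly from Col2a1 and from Sox9, which neural progenitors also express. Of the osteoclast markers, Mmp9 was at 11.7 to 16.2 CPM under poly(I:C) and 14.5 to 15.4 CPM in control, and Acp5 averaged 0.489 ± 0.247 CPM under poly(I:C) and 0.671 ± 0.188 CPM in control (SD, n = 3 each), both with overlapping libraries. Ocstamp had at most 5 counts in any library and was not tested. The part of these cells in the difference of Ctsk was not tested.

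The other proteases gave no call. Ctsh averaged 4.02 ± 0.802 CPM under poly(I:C) and 5.79 ± 1.13 CPM in control (SD, n = 3 each), with a log2 fold change of -0.52 (SE 0.188, edgeR adjusted p = 0.27) and overlapping libraries. Ctsl, Ctsf and Ctsz, cysteine cathepsins, Lgmn, which cleaves after asparagine, and Tpp1, which removes tripeptides from the ends of proteins, had log2 fold changes of -0.11 to 0.11 over control.

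Among the genes of lipid breakdown and cholesterol export, Npc2 came closest to a call. It encodes the soluble protein that hands cholesterol to Npc1 in the membrane. Npc2 was at 147, 154 and 146 CPM under valproic acid and 139, 142 and 144 CPM under poly(I:C), against 132, 139 and 137 CPM in control. The valproic acid libraries lay above all others, at a log2 fold change of 0.13 over control (SE 0.0388, edgeR adjusted p = 0.058). Npc1 was at 40.3 to 45.5 CPM under valproic acid, 45.9 to 50.1 CPM under poly(I:C) and 42.9 to 45.8 CPM in control, with a log2 fold change of -0.16 for valproic acid over poly(I:C) (edgeR adjusted p = 0.18). Lipa, the acid lipase of cholesteryl esters and triglycerides, was at 21.6 to 24.2 CPM under valproic acid and 21.5 to 23.3 CPM under poly(I:C), against 25.1 to 26.2 CPM in control. All exposed libraries were below all controls, at log2 fold changes of -0.15 and -0.20 (edgeR adjusted p = 0.23 and 0.27). Ppt1, which strips palmitate from proteins, varied least of all members over the 9 libraries (coefficient of variation 2.78%).

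None of the membrane proteins was called, and for most the interval was narrow. Lamp1 was at 183, 185 and 189 CPM under valproic acid, 169, 180.4 and 174 CPM under poly(I:C) and 172, 183 and 169 CPM in control. The valproic acid libraries lay above the rest by a narrow margin (log2 fold change 0.09 over control, 95% interval 0.00 to 0.17, edgeR adjusted p = 0.21). Scarb2 had log2 fold changes of -0.02 and -0.01 over control, with a 95% interval of -0.10 to 0.07 for valproic acid. Mcoln1, the calcium channel of the lysosomal membrane, had a log2 fold change of -0.01 for valproic acid over control, with a 95% interval of -0.17 to 0.15. Cln3, a membrane protein mutated in a juvenile form of neuronal ceroid lipofuscinosis, was at 17.4, 12.7 and 12.5 CPM under valproic acid, 12.4, 15.2 and 12.6 CPM under poly(I:C) and 13.7, 12.001 and 12.7 CPM in control, with valproic acid replicate 1 alone at the top.

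Grn, whose product progranulin reaches the lysosome and is cut into granulins there, averaged 53.9 ± 2.42 CPM under valproic acid and 51.9 ± 2.12 CPM under poly(I:C), against 53.9 ± 3.69 CPM in control (SD, n = 3 each). Tfeb was at 2.68, 3.03 and 3.66 CPM under valproic acid and 3.14, 3.46 and 3.0 CPM under poly(I:C), against 2.59, 1.86 and 3.68 CPM in control. The controls spanned both exposed groups, and the log2 fold changes were 0.19 (95% interval -0.32 to 0.70) and 0.23 (95% interval -0.27 to 0.73). At this level a 1.5-fold rise in Tfeb transcript was not excluded, and activity of the protein is not measured by RNA.

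**Figure D5:**
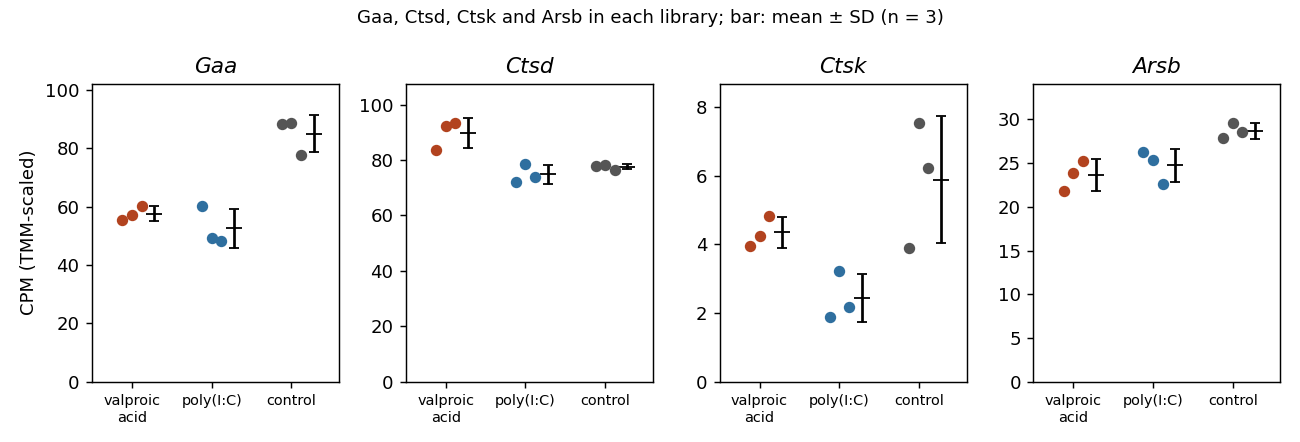
CPM of Gaa, Ctsd, Ctsk and Arsb in each library (points, replicates 1 to 3 from left to right in a group) with mean ± SD (n = 3); axes start at 0. Gaa and Arsb are lower in all 6 exposed libraries than in the 3 controls, Ctsd is higher in the 3 valproic acid libraries, and Ctsk is lower in the 3 poly(I:C) libraries.

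Other genes of the lysosomal pathway were read from lists. In the comparison of poly(I:C) with control, edgeR and DESeq2 called 0 of the 18 proton pump subunits, 10 genes of mannose 6-phosphate tagging and sorting, 21 further hydrolases, 17 further membrane proteins, 3 tested protease inhibitors, 22 genes of the TFEB family and nutrient signalling and 21 autophagy genes, where edgeR called 0.536% of all tested genes. DESeq2 gave an adjusted p to 20 of these hydrolases and 21 of the genes of the TFEB family and nutrient signalling. At an unadjusted p under 0.05 in edgeR there were 3 hydrolases (all lower), 3 nutrient signalling genes and 4 autophagy genes, and 0 in the other lists, against 12% of all tested genes. For valproic acid against control, where edgeR called 6.35% of all tested genes, the pump had 1 call, downward: Atp6v1a, the catalytic subunit, averaged 168 ± 4.50 CPM under valproic acid and 185 ± 5.55 CPM in control (SD, n = 3 each; log2 fold change -0.14, edgeR adjusted p = 0.0401). DESeq2 called it lower as well, together with Atp6v0e2. The sorting genes, membrane proteins and inhibitors had 0 calls by edgeR and by DESeq2, with 2, 1 and 1 of them at an unadjusted p under 0.05 in edgeR, against 22.1% of all tested genes. Of the 21 further hydrolases, 2 fell and 1 rose. Ids, the X-linked iduronate sulfatase, averaged 186 ± 12.3 CPM under valproic acid and 218 ± 7.27 CPM in control (SD, n = 3 each; log2 fold change -0.22, edgeR adjusted p = 0.0180), and Hyal2, a hyaluronidase of the cell surface, 49.4 ± 3.29 CPM under valproic acid and 42.1 ± 1.05 CPM in control (0.23, edgeR adjusted p = 0.030). The largest difference was in Manbal, named for a resemblance to beta-mannosidase but not itself an established hydrolase. Manbal was at 26.5, 26.2 and 30.1 CPM under valproic acid and 33.8, 33.1 and 35.2 CPM under poly(I:C), against 40.5, 44.1 and 38.3 CPM in control, and the 3 groups did not overlap. It fell under valproic acid relative to control (log2 fold change -0.57, edgeR adjusted p = 5.8e-04) and relative to poly(I:C) (-0.30, edgeR adjusted p = 0.0435), and the value for poly(I:C) over control was -0.27 (edgeR adjusted p = 0.13).

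Of the 22 genes of the TFEB family and nutrient signalling, Mtor, the kinase that keeps TFEB out of the nucleus when nutrients are plentiful, averaged 128 ± 7.76 CPM under valproic acid and 112 ± 5.56 CPM in control (SD, n = 3 each) and rose by a log2 fold change of 0.19 (edgeR adjusted p = 0.0401). Of the 21 autophagy genes Optn, a cargo receptor, fell to 5.64 ± 0.168 CPM under valproic acid, against 7.88 ± 0.682 CPM in control (SD, n = 3 each; log2 fold change -0.48, edgeR adjusted p = 0.0371). Leaving out any library kept the call of Manbal against control (highest edgeR adjusted p = 0.0035), and that against poly(I:C) held only without valproic acid replicate 3 (highest edgeR adjusted p = 0.14). Those of Atp6v1a and Optn ended whichever library was left out (highest edgeR adjusted p = 0.13 and 0.14), and of the autophagy genes DESeq2 called Ulk1, higher, and not Optn. That of Hyal2 held only without valproic acid replicate 2 (highest edgeR adjusted p = 0.11). That of Mtor ended without valproic acid replicate 2 or 3 or control replicate 1 or 3 (highest edgeR adjusted p = 0.14), and that of Ids without valproic acid replicate 1 or 3 or control replicate 1 (highest edgeR adjusted p = 0.079). With Xist as a covariate none of these 6 calls against control held: the log2 fold change of Ids was -0.13 (edgeR adjusted p = 0.68), that of Mtor 0.10 (0.79), that of Hyal2 0.21 (0.58), that of Atp6v1a -0.11 (0.69), that of Optn -0.57 (0.48) and that of Manbal -0.65 (0.12). This covariate nearly coincides with valproic acid against control, so these losses decide nothing. With Y-linked expression as a covariate Manbal was still called (edgeR adjusted p = 0.0105), and the other 5 were not (edgeR adjusted p = 0.14 to 0.27). The list medians for valproic acid over control ran from -0.11 for the 3 inhibitors to 0.05 for the sorting genes, beside -0.00 for all tested genes.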

How the data were processed

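The authors deposited raw counts for Ensembl genes in 9 libraries as a single table. Per the labels' protocols, ribosomal RNA was removed and libraries were built with a NEB Next Ultra kit. The submitters' processing notes name HISAT2 and the GRCm39 (mm39) genome. Of the counter, the strand setting and the annotation, the sources used here state nothing, so reads of antisense genes that overlap cannot be told apart. GENCODE M21 supplied symbols, which matched all 37 members, and exon lengths.

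Genes passing filterByExpr (min.count 10, min.total.count 15) of edgeR 4.0.16 in R 4.3.3 were scaled by TMM (factors 0.978 to 1.02) and fitted with a mean per group over all 9 libraries. Each pair of groups was compared by edgeR's two-sided quasi-likelihood F-test. The SE of a log2 fold change is its size over the square root of F. Alternatives were DESeq2's size factors in edgeR, DESeq2 1.42.0, other filters, the 6 libraries compared alone, a replicate block, Y-linked or Xist expression as a covariate, other library sizes and leaving out each library. No library was a copy: replicates of a group gave chi-squares of 3.95 to 6.46 per degree of freedom. The method was tested on simulated data.

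The members, the lists and the rule for named genes (members called, the smallest p in each other role group, Tfeb, Gla, the highest and lowest levels, and up to 3 called genes in each other list) were chosen with earlier results of these data known. Other members named with values were chosen after these were seen. Ahsp, on the erythroid marker list, had no match. The sums without Gaa and without Sall1 were added after the values were seen.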

Additional observations from a re-analysis of the deposited data

How the results depend on the processing

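Members called for valproic acid against control numbered 2, and 1 to 2 with a library left out; there was 1 with Y-linked expression and 0 with Xist as a covariate. In poly(I:C) against control there were 2, and 1 to 2 with a library left out; there was 1 with Xist as a covariate and 1 among libraries with Y-linked counts, a fit added after the data were seen. In valproic acid against poly(I:C) there was 1, and 0 to 1 with a library left out; there were 2 without a filter on low counts, 2 by DESeq2's Wald test (Ctsb added), 0 with either covariate and 0 among libraries with Xist counts, also added later, where poly(I:C) replicate 3 stood alone and was assumed to vary like the valproic acid libraries. Deviations from group means correlated at -0.04 to 0.14 for libraries with equal replicate numbers and at -0.11 to 0.07 for unequal ones. The highest value was that of poly(I:C) replicate 3 with control replicate 3, which both lacked Y-linked counts. These low values cannot show whether replicate numbers mark a batch or litter. The replicate block gave 2, 2 and 1 members called. Over all genes the counts were 1090, 92 and 445 in these comparisons, 467 to 789, 38 to 63 and 113 to 294 with a library left out, 1661, 464 and 1057 without a filter, and 19, 42 and 39 with Xist as a covariate. Y-linked expression gave 272 for valproic acid against control and 111 against poly(I:C), DESeq2 gave 164 for poly(I:C) against control, libraries with Y-linked counts gave 60 and libraries with Xist counts 37. Signs of log2 fold changes turned in 5 named members, in comparisons where they were not called. Gla, for valproic acid over control (0.02), was -0.0649 with the Y-linked covariate, -0.14 with Xist and -0.0491 to 0.0750 with a library left out. Smpd1, for poly(I:C) over control (-0.02), was 0.0240 with Xist, 0.0544 among libraries with Y-linked counts and -0.0578 to 0.0220 with a library left out. Lamp1, in the same comparison, was 0.000643 by DESeq2, 0.00101 with Xist and -0.0252 to 0.0321 with a library left out. For valproic acid over poly(I:C), Arsb (-0.07) was 0.0652 with Xist and 0.0664 among libraries with Xist counts, and Tfeb (-0.04) was 0.0620 and 0.0563 in these fits and -0.16 to 0.0605 with a library left out. For valproic acid over control, Tfeb was -0.0182 to 0.49 with a library left out. The cause was not tested. Depth limits Tfeb, Manba, Ctsh and Ctsk, the members under 100 counts in some library.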

Other observations

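Beside Eif4a3, 2 of the 10 genes around Gaa on chromosome 11 differed between groups and were chosen after their values were seen. Cbx2, a Polycomb subunit, was at 65.5 to 68.8 CPM under valproic acid, against 55.7 to 56.7 CPM in control, and rose (log2 fold change 0.25, edgeR adjusted p = 0.0113). Rnf213, a large ubiquitin ligase that interferon induces, was at 7.87 to 12.2 CPM under valproic acid, against 5.18 to 5.74 CPM under poly(I:C), and was higher in that comparison (log2 fold change 0.92, edgeR adjusted p = 0.0170); in control it was at 5.96 to 8.85 CPM.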
